A study of Homo sapiens with 6 samples.

Results

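Glutamine uptake and metabolism were examined through 9 genes, taken from the count table by symbol: the transporters SLC1A5, SLC38A1 and SLC1A3, the enzymes that make or use up glutamine and glutamate (GLS2, GLUL and GLUD1), the aspartate transaminases GOT1 and GOT2, and OGDH of the citric acid cycle. The table lists 28008 genes, of which 14292 passed the filter on low counts, and 9 of the 9 genes were among them. The libraries came from DU-145-DR/tet-MUC1shRNA cells. DU-145 is a human prostate cancer line, DU-145-DR was selected from it for resistance to docetaxel (DTX), and the added hairpin against MUC1 is switched on by doxycycline (DOX). The DOX-negative group (3 libraries) had received the DMSO vehicle and the DOX-positive group (3 libraries) DOX at 500 ng/mL. Both groups are DTX-resistant cells of the same line. That the DOX-negative cells carry the hairpin too is taken from the study and the sample titles, since the treatment labels name it for the DOX-positive libraries only. A single hairpin was used and DOX-treated cells with a control hairpin were not analysed here, so MUC1 silencing and exposure to DOX cannot be told apart. Libraries held between 15092691 and 23243713 counts. Levels are given as CPM, counts scaled by library totals that were adjusted with edgeR's TMM factors.

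Glutamine is carried into cells by sodium-dependent transporters of the SLC1 and SLC38 families. Glutaminases convert it to glutamate, which glutamate dehydrogenase or a transaminase turns into 2-oxoglutarate for the citric acid cycle, and glutamine synthetase runs the opposite way, from glutamate back to glutamine. MYC is widely known to promote glutamine uptake and glutaminolysis in cancer cells, in part through SLC1A5.

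Of the 9 genes, 3 were higher in DOX-positive cells (GOT1, SLC38A1 and OGDH), 0 were lower and 6 did not pass the threshold of an adjusted p under 0.05 (edgeR's quasi-likelihood test, Benjamini-Hochberg adjustment over all genes tested). Among all genes tested, 26.7% passed it, 13% as higher and 13.7% as lower. The CPM of the groups did not overlap for 5 of the 9 genes, against 39.8% of all genes tested. The median log2 fold change of the 9 genes was 0.17, beside -0.0034 over all genes tested. At an unadjusted edgeR p under 0.05 and by DESeq2, 0 of the 9 were lower as well. By DESeq2, 1754 of 20442 genes passed as lower, and the share of all genes at the unadjusted threshold was not computed. With so few genes, 0 lower says little about them. The changes that passed were small, between 14.2% and 41.9%.

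The targeted gene checked the labels. Counts of MUC1 were 387, 484 and 396 without DOX and 75, 74 and 66 with it (log2 fold change -2.52, SE 0.146, edgeR adjusted p 4.47e-11). The mRNA of MYC, a transcription factor, was at 125, 124 and 115 CPM without DOX and at 198, 167 and 200 CPM with DOX. It was thus higher in each DOX-positive library, and its log2 fold change was 0.64 (SE 0.0732, edgeR adjusted p 1.02e-06). This is mRNA only. For MYC protein the study reported the opposite direction, a decrease by immunoblot in lysates and chromatin of these cells after DOX. Whether any change in the 9 genes followed from MYC was not tested. The epithelial markers EPCAM, KRT8, KRT18, KRT19 and CDH1 were present and 5 of the 5 rose, with EPCAM going from 30.5 ± 1.14 to 82.1 ± 2.97 CPM (SD, n = 3 each, log2 fold change 1.43, edgeR adjusted p 1.68e-11). KLK3, a marker of luminal prostate cells, had 0 counts in all 6 libraries, and TMPRSS2, another, had at most 3. Of the markers of blood, endothelium and fibroblasts, CD3E had 0 counts, PTPRC at most 3, CD14 at most 9, PECAM1 and PDGFRB at most 6, VWF at most 5, COL3A1 between 6 and 14 and COL1A1 between 66 and 96. The part of the epithelial rise in the results was not tested, and in bulk RNA fewer cells of a kind and less RNA per cell cannot be told apart.

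**Figure D1:**
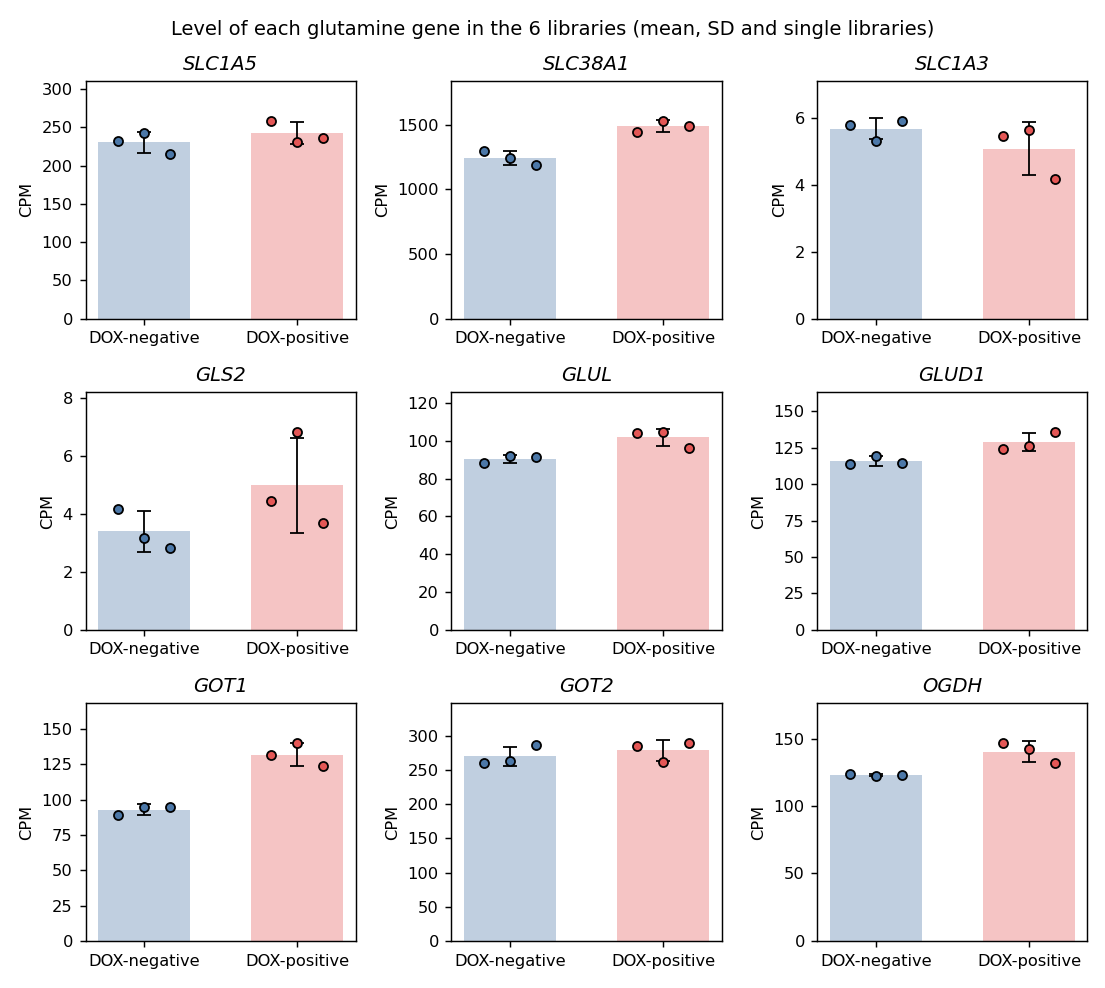
Expression of the 9 genes in each library, in CPM on a separate linear axis for each gene that starts at 0; points are libraries (3 DOX-negative and 3 DOX-positive), bars are group means and error bars are the SD. The 3 DOX-positive points lie above the 3 DOX-negative points for SLC38A1, GLUL, GLUD1, GOT1 and OGDH, and the groups overlap for SLC1A5, SLC1A3, GLS2 and GOT2.

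Promoter sequence was examined for a pair of motifs tied to the background above. These were CACGTG, the E-box that MYC binds with its partner MAX, and TGATGNAA, the core of the amino acid response element, to which ATF4 binds when amino acids are short. Windows of 250 bases before to 50 bases after each RefSeq start (GRCh38.p14) were searched on both strands. The motifs can share bases, but no window of the 9 genes held both. Windows were found for 8 of the 9 genes, 14 in all. OGDH was not among them. CACGTG was in a window of 1 gene, SLC1A5, and is in 7.26% of the 35116 promoters of all genes. TGATGNAA was in a window of 4 genes (GOT1, SLC38A1, SLC1A5 and SLC1A3) and is in 3.62% of all promoters. Of these 4 genes, GOT1 and SLC38A1 were higher with DOX, and SLC1A5 and SLC1A3 did not pass the threshold. A gene with several starts has several chances to match. Over genes, the shares were 8.77% and 4.46% of 27305. These matches are letters in a window, not measured binding sites.

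The windows of GOT1 and GOT2 are shown because GOT1 passed the threshold and its relative GOT2 did not. That of SLC38A1 is shown because it rose and holds a match, and that of SLC1A5 because it alone holds CACGTG. All are on the minus strand, written 5′ to 3′, with the match in capitals. GOT1 lies at chr10:99430575-99430874 (first base of the match at -198 from the start, reading TGATGNAA on the opposite strand), SLC38A1 at chr12:46266467-46266766 (match at -4), SLC1A5 at chr19:46787244-46787543 (match at -50) and GOT2 at chr16:58734267-58734566 (no match). All 4 starts lie inside the GENCODE gene, by 945 bases from its 5′ end for GOT1, 3501 for SLC38A1, 1301 for SLC1A5 and 41 for GOT2. The SLC1A5 window at the 5′ end of its gene (chr19:46788545-46788844, not shown) holds neither motif. Also not shown are the windows of SLC1A5 and SLC1A3 that hold TGATGNAA (first base at -97 and -220). The windows shown were thus picked in part by how the genes moved.
GOT1: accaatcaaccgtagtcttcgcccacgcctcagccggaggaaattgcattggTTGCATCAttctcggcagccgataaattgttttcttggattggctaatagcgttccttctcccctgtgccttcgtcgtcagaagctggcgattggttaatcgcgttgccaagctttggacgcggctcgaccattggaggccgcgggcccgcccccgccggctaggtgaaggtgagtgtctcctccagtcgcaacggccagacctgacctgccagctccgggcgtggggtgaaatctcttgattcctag
GOT2: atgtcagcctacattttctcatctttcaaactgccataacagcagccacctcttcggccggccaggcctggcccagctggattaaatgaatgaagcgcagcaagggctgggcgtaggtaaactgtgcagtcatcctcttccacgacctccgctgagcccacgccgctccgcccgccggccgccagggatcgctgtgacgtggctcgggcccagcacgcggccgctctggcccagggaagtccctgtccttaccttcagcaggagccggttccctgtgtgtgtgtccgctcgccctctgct
SLC38A1: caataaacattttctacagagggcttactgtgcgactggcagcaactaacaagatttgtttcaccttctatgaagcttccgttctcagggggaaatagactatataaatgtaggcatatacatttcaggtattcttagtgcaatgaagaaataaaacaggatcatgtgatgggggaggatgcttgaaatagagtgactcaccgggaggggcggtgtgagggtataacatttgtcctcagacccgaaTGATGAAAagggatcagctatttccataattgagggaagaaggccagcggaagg
SLC1A5: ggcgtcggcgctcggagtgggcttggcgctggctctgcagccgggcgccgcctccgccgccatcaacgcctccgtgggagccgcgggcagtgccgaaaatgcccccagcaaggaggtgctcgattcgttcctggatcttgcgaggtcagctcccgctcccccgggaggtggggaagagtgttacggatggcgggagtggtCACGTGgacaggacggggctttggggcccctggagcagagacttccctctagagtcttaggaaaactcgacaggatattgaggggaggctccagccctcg

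The transporters were examined first. SLC38A1 (chr12:46183063-46270017, minus strand; GRCh38 in this and the following gene positions, GENCODE 29) encodes SNAT1, a sodium-coupled carrier of small neutral amino acids including glutamine. It was at 1298, 1240 and 1190 CPM in DOX-negative libraries and at 1443, 1531 and 1492 CPM in DOX-positive libraries. Every DOX-positive library was above every DOX-negative library. Its level went from 1243 ± 53.9 to 1489 ± 44.4 CPM (SD, n = 3 each), a rise of 19.8% and the log2 fold change was 0.26 (SE 0.0629, edgeR adjusted p 0.00362). With any single library left out, the adjusted p stayed between 0.00493 and 0.0182. On the deposited TPM, where the median of all genes was shifted by -0.32, the log2 fold change of SLC38A1 was -0.13, or 0.19 above that median, and did not pass.

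SLC1A5 (chr19:46774883-46788594, minus strand) encodes ASCT2, a sodium-dependent exchanger that brings in glutamine. It was at 232, 243 and 215 CPM without DOX and 259, 231 and 237 CPM with DOX. The groups overlapped. The means were 230.2 ± 14.1 and 242 ± 14.6 CPM (SD, n = 3 each), and the log2 fold change was 0.074 (SE 0.0659, edgeR adjusted p 0.448). SLC1A5 shares exon sequence on the opposite strand with 2 genes, and the use of strand in counting is not given in the sources used here.

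SLC1A3 (chr5:36606355-36688334, plus strand) encodes EAAT1, a carrier of glutamate and aspartate rather than glutamine. It was scarce, with 105, 104 and 119 counts without DOX and 125, 108 and 62 with DOX. In CPM this was 5.78, 5.32 and 5.92 without DOX and 5.45, 5.64 and 4.17 with DOX. The groups overlapped, and DOX-positive replicate 3 was the lowest. The log2 fold change was -0.15 (SE 0.176, edgeR adjusted p 0.589), and -0.033 without DOX-positive replicate 3 (edgeR adjusted p 0.927). Among the 9 genes, only SLC1A3 carries the heptamer ATCAGTA in its longest annotated 3′UTR, where it occurs 1 time. Of the 1402 tested genes with that heptamer, 31.6% were lower and 11.4% higher in DOX-positive cells, beside 12.8% and 14.2% of the 10988 without it. MUC1 carries the heptamer 1 time as well. The genes with and without it were not matched for 3′UTR length. The heptamer was first picked out by a scan of these same libraries, so these shares are a description, and its part in the results was not tested.

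The enzymes that link glutamine and glutamate did not pass the threshold. GLS2 (chr12:56470944-56488414, minus strand), the liver-type glutaminase, had 76, 62 and 57 counts without DOX and 102, 131 and 55 with DOX. In CPM this was 4.18, 3.17 and 2.84, and then 4.44, 6.84 and 3.70. DOX-positive replicate 2 was the highest, and replicate 3 lay within the DOX-negative range. The level was 3.40 ± 0.702 CPM in the DOX-negative group, against 4.995 ± 1.64 CPM in the DOX-positive group (SD, n = 3 each), and the log2 fold change was 0.57 (SE 0.231, edgeR adjusted p 0.0732). GLS2 thus had the largest fold change of the 9 genes and the largest SE. Without DOX-positive replicate 2 its log2 fold change was 0.28 (edgeR adjusted p 0.417), and without DOX-positive replicate 3 it was 0.73 (edgeR adjusted p 0.0334). It also passed with no filter on low counts (edgeR adjusted p 0.0295). Its exons overlap those of 1 gene on the same strand and those of SPRYD4 on the opposite strand.

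GLUL (chr1:182381704-182392206, minus strand) encodes glutamine synthetase. It was at 88.1, 91.8 and 91.3 CPM without DOX and 104, 105 and 96.4 CPM with DOX. The groups did not overlap, yet the log2 fold change was 0.17 (SE 0.0680, edgeR adjusted p 0.0657). The annotation names 4 pseudogenes after GLUL.

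GLUD1 (chr10:87050486-87094866, minus strand) encodes mitochondrial glutamate dehydrogenase, which oxidises glutamate to 2-oxoglutarate. It was at 114, 120 and 115 CPM without DOX and 124, 127 and 136 CPM with DOX. Here too the groups did not overlap, and the log2 fold change was 0.15 (SE 0.0659, edgeR adjusted p 0.0954). GLUD1 has 5 pseudogenes named after it and a near-identical copy, GLUD2, so some of its reads may belong to another locus. GLUD2 was at 5.62 ± 1.08 and 5.90 ± 0.378 CPM (SD, n = 3 each). Its log2 fold change was 0.069 (edgeR adjusted p 0.818).

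The transaminases divided. GOT1 (chr10:99396870-99431569, minus strand) encodes the cytosolic aspartate transaminase, which passes an amino group between glutamate and oxaloacetate and works in the malate-aspartate shuttle. It was at 88.8, 95.0 and 95.1 CPM in DOX-negative libraries and at 132, 140.1 and 124 CPM in DOX-positive libraries. Every DOX-positive library was above every DOX-negative library. The level rose from 93.0 ± 3.58 to 132 ± 8.13 CPM (SD, n = 3 each), which was 41.9% higher by the fit, and the log2 fold change was 0.50 (SE 0.0690, edgeR adjusted p 1.05e-05). GOT1 had the smallest adjusted p of the 9 genes. With any single library left out, its log2 fold change lay between 0.46 and 0.55. On the deposited TPM it was 0.11, which did not pass and lay 0.43 above the median of all genes.

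GOT2 (chr16:58707131-58734357, minus strand) encodes the mitochondrial enzyme of the same reaction. It was at 260.0, 263 and 286 CPM without DOX and 286, 261 and 290 CPM with DOX. The groups overlapped, and the log2 fold change was 0.047 (SE 0.0641, edgeR adjusted p 0.637). GOT1 and GOT2 each overlap 1 gene on the opposite strand, and 4 pseudogenes are named after GOT2.

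OGDH (chr7:44606572-44709066, plus strand) encodes the E1 subunit of the 2-oxoglutarate dehydrogenase complex, which commits 2-oxoglutarate to the citric acid cycle. It was at 124, 122 and 123 CPM without DOX and 147, 142 and 132 CPM with DOX. The groups did not overlap. The level was 123 ± 0.904 and 140.3 ± 7.58 CPM (SD, n = 3 each), 14.2% higher with DOX by the fit, and the log2 fold change was 0.19 (SE 0.0651, edgeR adjusted p 0.0333). This call was the weakest of the 3. It was lost when DOX-negative replicate 1, 2 or 3 was left out (edgeR adjusted p 0.0946, 0.0621 and 0.0699) or when DOX-positive replicate 1 or 2 was (0.151 and 0.0583), and with unscaled library totals (0.0780). On the deposited TPM its log2 fold change was -0.20, or 0.12 above the median of all genes.

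**Figure D2:**
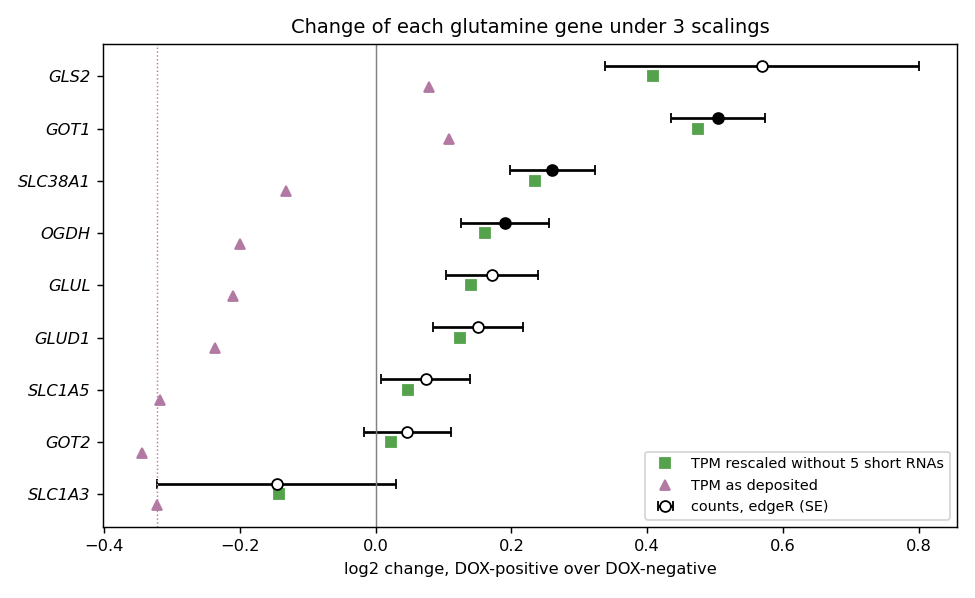
Log2 fold change, DOX-positive over DOX-negative, of each of the 9 genes by edgeR on counts, with bars of 1 SE, beside the same change on deposited and on rescaled TPM; filled circles passed an adjusted p under 0.05, and the dotted line marks the median of all genes on deposited TPM. GOT1, SLC38A1 and OGDH are filled at 0.50, 0.26 and 0.19, and the deposited TPM values of all 9 genes lie to the left of the count values.

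Ratios within a library do not depend on how libraries are scaled to each other. The log2 ratio of GOT1 to GOT2 CPM was -1.55, -1.47 and -1.59 without DOX and -1.12, -0.90 and -1.23 with DOX. The groups did not overlap, and the ratio was 0.46 higher with DOX (from -1.54 ± 0.0598 to -1.08 ± 0.167, SD, n = 3 each). By the exact permutation test (two-sided) its p was 0.1, the smallest that 3 against 3 libraries allow, and 0.267 after adjustment over the 4 ratios. Leaving out single libraries gave differences between 0.37 and 0.53.

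The other 3 ratios overlapped between the groups. SLC1A5 to SLC38A1 went from -2.43 ± 0.0717 to -2.62 ± 0.128 (difference -0.19, exact permutation p 0.2, adjusted 0.267). SLC1A5 to SLC1A3 went from 5.34 ± 0.166 to 5.58 ± 0.236 (difference 0.24, exact permutation p 0.2, adjusted 0.267). GLUL to GLUD1, synthesis of glutamine against oxidation of glutamate, was -0.36 ± 0.0287 and -0.34 ± 0.136 (difference 0.019, exact permutation p 0.9, adjusted 0.9), and the sign of its difference turned without DOX-positive replicate 1 or 2 (-0.025 and -0.014).

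**Figure D3:**
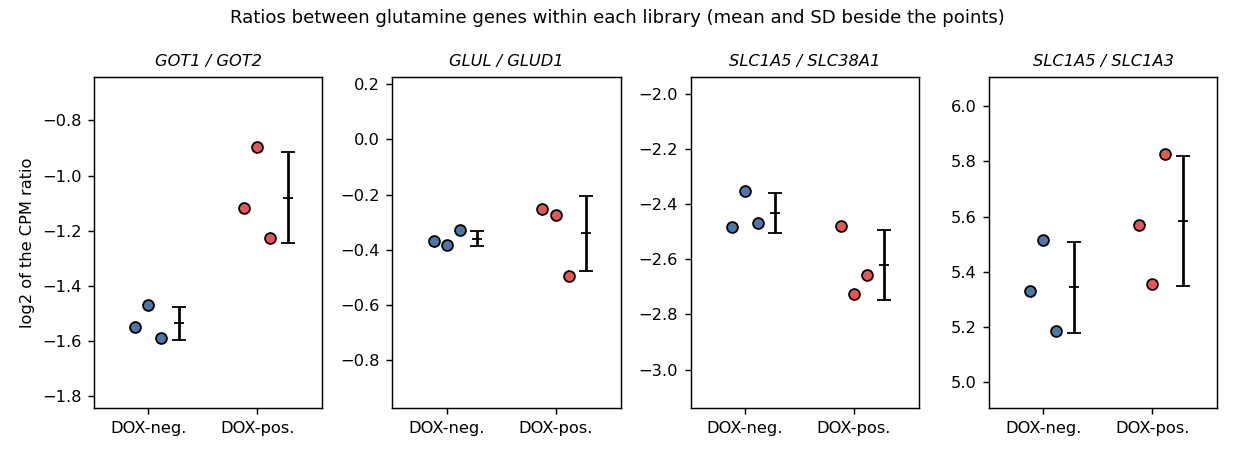
Log2 ratios of CPM within each library for the 4 pairs of genes; points are the 3 DOX-negative and 3 DOX-positive libraries and the bars beside them give the mean and SD, with an axis of equal span in each panel. The GOT1 to GOT2 points of the groups are apart (at most -1.47 without DOX and at least -1.23 with DOX), and the other 3 pairs overlap.

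Levels of different genes were ordered per length, on TPM rescaled without 5 short noncoding RNAs (RPPH1, RN7SK and RN7SL1 to RN7SL3) that held between 34.4% and 64.4% of the deposited TPM of a library. In DOX-negative cells the order of mean rescaled TPM was SLC38A1 (330.1 ± 20.7), GOT2 (319 ± 9.39), SLC1A5 (203 ± 17.5), GOT1 (130 ± 5.34), GLUD1 (78.8 ± 3.79), OGDH (69.5 ± 1.78), GLUL (28.1 ± 0.901), GLS2 (3.59 ± 0.785) and SLC1A3 (3.19 ± 0.117; SD, n = 3 each). SLC38A1 and GOT2 overlapped, as did GLS2 and SLC1A3. The range thus ran from the plasma membrane carrier of glutamine at the top to the glutamate carrier and the liver-type glutaminase at the bottom. The order of the means was the same with DOX, with no overlap between neighbours among the 9 genes, where SLC38A1 was at 389 ± 16.6, GOT2 at 324 ± 16.9 and GOT1 at 181 ± 11.5 rescaled TPM (SD, n = 3 each). SLC38A2, not among the 9 genes, which encodes SNAT2, a relative of SNAT1, was at 874 ± 67.5 and 1012 ± 27.4.

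**Figure D4:**
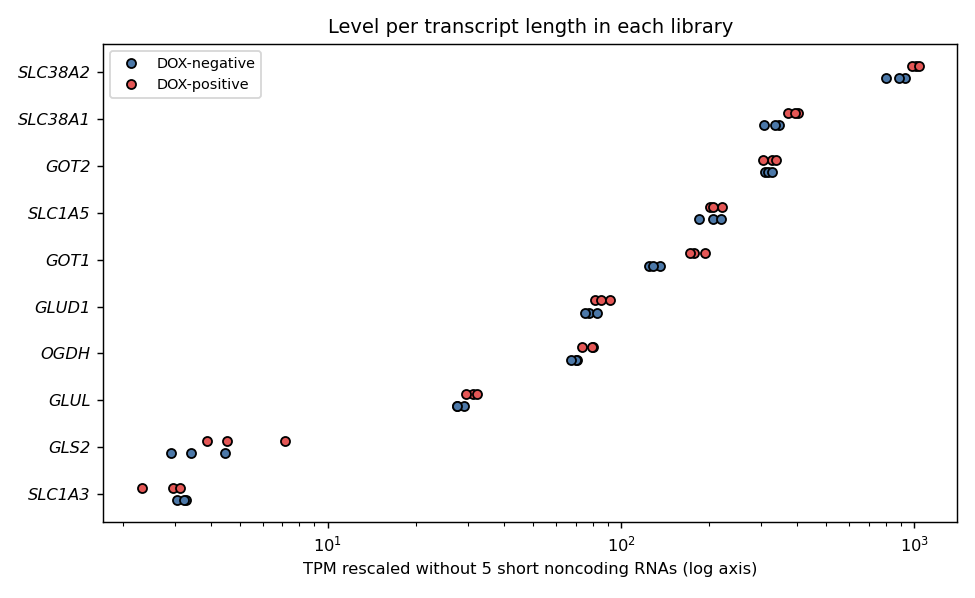
Rescaled TPM of the 9 genes and of SLC38A2 in each of the 3 DOX-negative and 3 DOX-positive libraries, on a log axis, ordered by mean. SLC38A2, SLC38A1 and GOT2 are at the top at over 300 rescaled TPM on average, and GLS2 and SLC1A3 are at the bottom at under 6 on average.

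The wider pathway was read from a list of 82 genes, of which 73 were tested. Of these, 21 passed the threshold, 12 higher and 9 lower, or 28.8% beside 26.7% of all genes tested. Without the 9 genes it was 18 of 64, 9 in each direction, with a median log2 fold change of 0.033. The counts by role below rest on 4 to 25 tested genes each. They stand beside 13% of all genes tested that were higher and 13.7% that were lower. The 9 untested genes of the list (SLC1A2, SLC1A6, SLC1A7, SLC38A5, SLC6A14, SLC6A19, SLC7A8, SLC25A18 and GPT) had at most 8 counts in any library.

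Among the genes listed as plasma membrane transporters, 3 of the 12 tested rose and 1 fell. SLC38A2 rose alongside SLC38A1, from 1560 ± 92.6 to 1840.3 ± 59.3 CPM (SD, n = 3 each, log2 fold change 0.24, SE 0.0652, edgeR adjusted p 0.00916). SLC7A5, the light chain of the LAT1 exchanger that can trade glutamine out for essential amino acids, rose from 503 to 604 CPM in the mean (log2 fold change 0.27, edgeR adjusted p 0.00413). On the deposited TPM both turned sign, to -0.15 and -0.13. On rescaled TPM, SLC38A2 did not pass (limma adjusted p 0.0588) and SLC7A5 did (limma adjusted p 0.0448). SLC3A2, the heavy chain of the same exchanger, had a log2 fold change of 0.059 (edgeR adjusted p 0.557), and SLC7A11, the cystine-glutamate exchanger, had -0.048 (edgeR adjusted p 0.637). SLC1A1, the glutamate carrier EAAT3, fell from 13.1 ± 1.69 to 8.01 ± 0.786 CPM (SD, n = 3 each, log2 fold change -0.70, SE 0.139, edgeR adjusted p 0.000620). Other listed carriers of glutamine did not pass: beside SLC1A5, SLC38A7 had a log2 fold change of 0.091 (edgeR adjusted p 0.435) and SLC38A3 of -0.41 (edgeR adjusted p 0.496). Where in the cell the listed carriers act was not examined.

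Of the mitochondrial carriers, 1 of 4 tested fell. This was SLC25A13, an aspartate-glutamate carrier of the same malate-aspartate shuttle as GOT1, from 53.3 to 39.1 CPM (log2 fold change -0.45, edgeR adjusted p 0.000294). In the group of glutaminases, synthetase and dehydrogenases, 0 of 5 passed by edgeR and 0 by DESeq2. An unadjusted edgeR p under 0.05 was seen for 3 of them (GLS2, GLUL and GLUD1). The share of all genes under that unadjusted threshold was not computed, so this count cannot be set against a background.

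Among the transaminases, 3 of 7 rose and 0 fell, beside 13% and 13.7% of all genes tested. Without GOT1 and GOT2, 2 of 5 rose and 0 fell. At an unadjusted edgeR p under 0.05 and by DESeq2, 0 were lower too, which says little with so few genes. Beside GOT1, those that rose were OAT, ornithine aminotransferase (137 to 167 CPM, log2 fold change 0.29, edgeR adjusted p 0.00254), and BCAT2, the mitochondrial branched-chain transaminase (16.0 to 21.5 CPM, log2 fold change 0.43, edgeR adjusted p 0.00947). BCAT2 no longer passed without DOX-negative replicate 3 (edgeR adjusted p 0.0671), and OAT turned sign on the deposited TPM (-0.11).

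Around OGDH, in the dehydrogenase complex and citric acid cycle, 3 of 25 rose and 2 fell. Beside OGDH, SDHD, a subunit of succinate dehydrogenase, rose from 146 to 171 CPM (log2 fold change 0.22, edgeR adjusted p 0.0232; -0.17 on the deposited TPM). SDHD did not pass without DOX-negative replicate 2 (edgeR adjusted p 0.108) or DOX-positive replicate 2 (0.0995). ME1, cytosolic malic enzyme, fell from 147 to 131 CPM (log2 fold change -0.17, edgeR adjusted p 0.0449). OGDHL, a relative of OGDH, fell from 6.04 to 4.02 CPM (log2 fold change -0.61, edgeR adjusted p 0.0269) with overlapping groups. ME1 did not pass without DOX-negative replicate 1, 2 or 3 (edgeR adjusted p 0.121, 0.0675 and 0.0996) or DOX-positive replicate 1 or 3 (0.152 and 0.101). OGDHL did not pass without DOX-negative replicate 2 or 3 (edgeR adjusted p 0.0787 and 0.133) or DOX-positive replicate 1 (0.121).

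Of the enzymes that take the amide nitrogen of glutamine, with glutaminyl-tRNA synthetase, 1 of 11 rose and 3 fell. CTPS1, CTP synthase, fell from 98.1 to 75.8 CPM (log2 fold change -0.37, edgeR adjusted p 0.000258). GFPT2, of the hexosamine pathway, fell from 36.8 to 29.3 CPM (log2 fold change -0.33, edgeR adjusted p 0.00653), and CAD, which opens pyrimidine synthesis, from 117 to 99.3 CPM (log2 fold change -0.24, edgeR adjusted p 0.0135). GFPT1, a relative of GFPT2 with more counts, did not pass (174.9 and 176.2 CPM, log2 fold change 0.011, edgeR adjusted p 0.934). CAD did not pass without DOX-negative replicate 2 (edgeR adjusted p 0.0764). CTPS2 rose from 13.3 to 16.6 CPM (log2 fold change 0.33, edgeR adjusted p 0.0398; -0.066 on the deposited TPM). CTPS2 did not pass without DOX-negative replicate 1 or 3 (edgeR adjusted p 0.0680 and 0.163), without DOX-positive replicate 1, 2 or 3 (0.117, 0.0656 and 0.0518) or by DESeq2 (adjusted p 0.0563). ASNS, asparagine synthetase and a textbook ATF4 target, was at 5.58 and 5.56 CPM (log2 fold change -0.0066, edgeR adjusted p 0.985).

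In the routes from glutamate to proline and glutathione, 2 of 9 rose and 2 fell. PRODH and ALDH4A1, which break proline down to glutamate, rose (log2 fold change 0.52 and 0.39, edgeR adjusted p 0.00238 and 0.0281). GCLM and GCLC, the subunits of the enzyme that starts glutathione synthesis from glutamate, fell (log2 fold change -0.41 and -0.25, edgeR adjusted p 0.000446 and 0.0190), GCLC with overlapping groups. ALDH4A1 had -0.013 on the deposited TPM, and did not pass without DOX-negative replicate 1 or 3 (edgeR adjusted p 0.0554 and 0.139) or DOX-positive replicate 1 or 3 (0.0733 and 0.0617). GCLC did not pass without DOX-negative replicate 1 (edgeR adjusted p 0.110) or DOX-positive replicate 1 or 3 (0.118 and 0.105). The heptamer ATCAGTA is in 8 tested genes of the list, of which 2 fell (SLC1A1 and CTPS1), 0 rose and 6, SLC1A3 among them, did not pass. It is in 11.3% of the 12390 tested genes with an annotated 3′UTR.

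**Figure D5:**
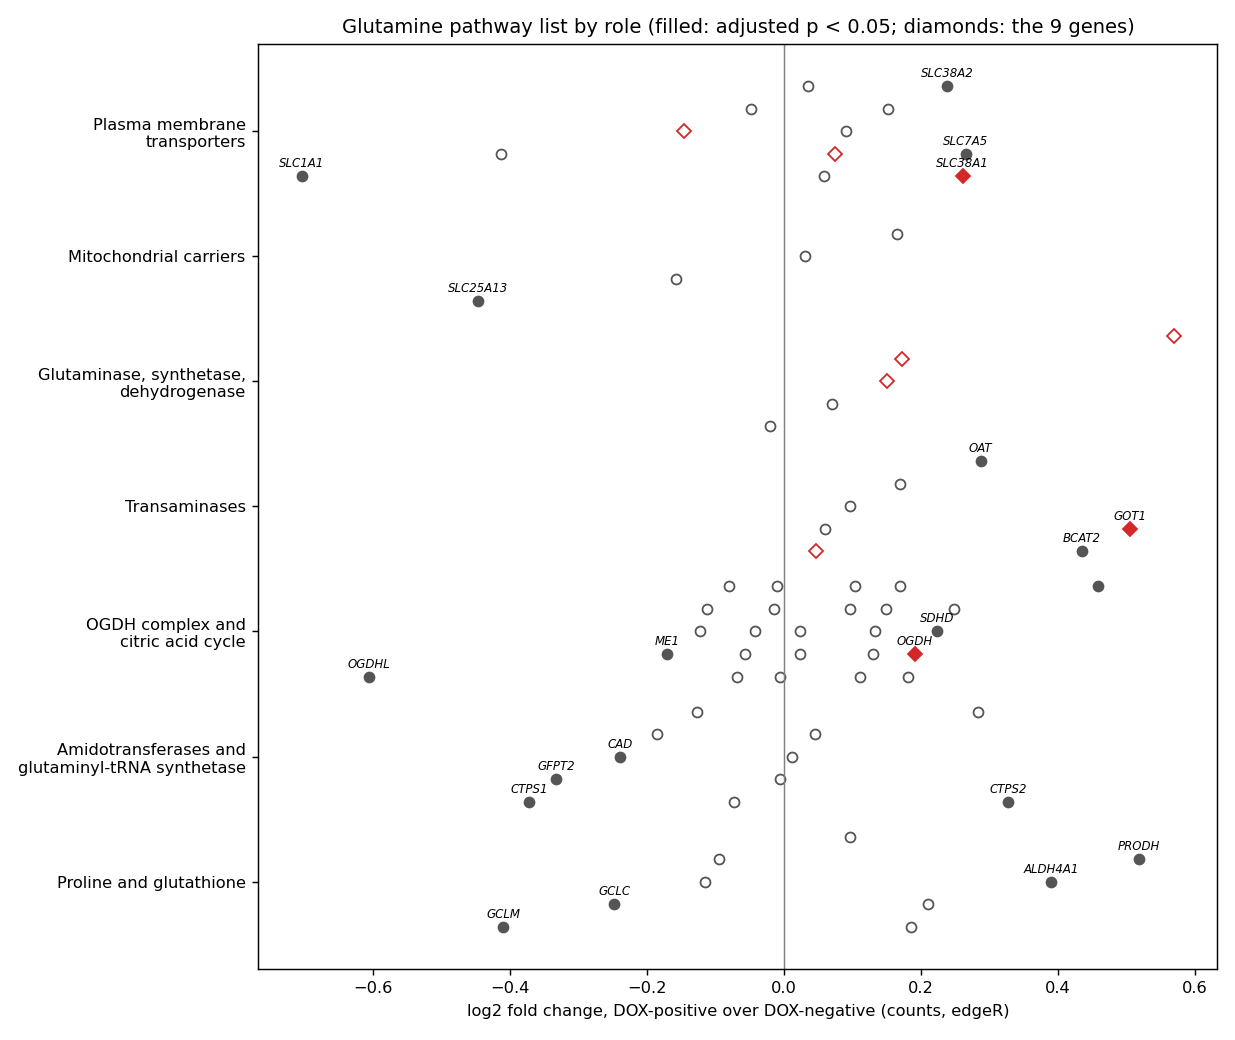
Log2 fold change by edgeR of the 73 tested genes of the pathway list, in rows by role and spread vertically only for legibility; filled markers passed an adjusted p under 0.05 and diamonds are the 9 genes, with names at the filled markers reported by name. Filled markers lie on both sides of 0 (12 higher and 9 lower), with those of the transaminases at 0.29 to 0.50.

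The genes most like GOT1 across the 6 libraries, by root mean square difference of log2 CPM after centring, were SHPK (0.0256), LETM2 (0.0285) and ZHX3 (0.0354), chosen from tested genes with an average log2 CPM of at least 1. Since they were chosen for likeness over these same libraries, their log2 fold changes of 0.52, 0.57 and 0.51 were close to that of GOT1 by selection.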

How the data were processed

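RNA-Seq libraries (TruSeq Stranded mRNA, poly(A)-selected) were made by the authors, who cultured cells in triplicates and extracted total RNA. The authors deposited whole-number read counts per gene (28008 genes) and TPM values (25546 genes). STAR, DESeq2 and GRCh38 are named in the submitters' processing notes. The annotation, the counting step and its use of strand are not given in the sources used here. Groups and replicate numbers come from the titles. Table columns, which carry another abbreviation of the line, were matched by DOX state and number. Where replicates are not separate cultures, p-values measure technical spread only.

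Counts were tested in R 4.3.3 with edgeR 4.0.16: filterByExpr, TMM factors (0.986 to 1.03), glmQLFit and glmQLFTest, two-sided, group as the only term, Benjamini-Hochberg over 14292 genes. The SE is the absolute log2 fold change over the root of F. A count of 3 was 0.131 to 0.202 CPM; this floor covers counting error only. Libraries of a group differed beyond sampling noise (chi-square per degree of freedom 3.76 to 20.2), which does not settle whether they came from separate cultures. Each was treated as 1 replicate. TPM was tested with limma 3.58.1 on log2(TPM + 1), for genes with a mean TPM of at least 0.1; this scale understates changes of low genes.

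Named were the 9 genes, MUC1, MYC, 5 chosen pathway genes, up to 4 genes per role with the smallest adjusted p under 0.05 and non-overlapping groups, and the 3 genes most like GOT1. OGDHL and GCLC were named after their values were seen, as were GLUD2, SLC38A3, SLC38A7, GFPT1 and the untested genes. Some genes are not reported here by name. The 9 genes, lists, motifs and heptamer were chosen with earlier results of these data known. Of the list, 81 genes matched by symbol and 1 by synonym. Promoters are from RefSeq, and gene positions and 3′UTRs from GENCODE 29; the build is that of the annotation. Alternatives were DESeq2 1.42.0, RLE factors, total counts, other filters, thinning to the smallest library, a replicate block, deposited TPM with pseudocounts of 1 and 0.1, rescaled TPM, and leaving out each library. The fits were tested on simulated data.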

Additional observations from a re-analysis of the deposited data

How the results depend on the processing

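Counts of calls stayed within 1.5 times of those reported in every count-based setting and fell on deposited TPM. Of all genes 3816 passed, with 2784 to 3645 when single libraries were left out, 3537 with DESeq2, 4004 with no filter, 416 on log2(TPM + 1) and 400 on log2(TPM + 0.1). Of the 9 genes 3 passed, with 2 to 4 when single libraries were left out, 4 with no filter, and 0 and 0 on the deposited TPM scales. Of the pathway list 21 passed, with 16 to 19, then 0 and 0, and 12 on rescaled TPM. Deposited TPM moved the median log2 fold change of all genes to -0.32 and -0.39 and the share of calls that were higher from 48.8% to 9.62% and 10.3%. That share was 39.3% with total counts. On rescaled TPM, SLC38A1 and GOT1 passed and OGDH did not (limma adjusted p 0.0905). MUC1 kept its direction and call in all 16 alternatives (-2.85 to -2.36).

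On log2(TPM + 1) and log2(TPM + 0.1) the sign turned for SLC1A5 (-0.32 and -0.32), SLC38A1 (-0.13 and -0.13), GLUL (-0.21 and -0.22), GLUD1 (-0.24 and -0.24), GOT2 (-0.34 and -0.35), OGDH (-0.20 and -0.20), SLC38A2 (-0.15 and -0.15), SLC7A5 (-0.13 and -0.13), SLC3A2 (-0.33 and -0.34), OAT (-0.11 and -0.11), SDHD (-0.17 and -0.17), CTPS2 (-0.066 and -0.068) and ALDH4A1 (-0.013 and -1.06e-05). Leaving out single libraries moved ASNS between -0.18 and 0.099, and the log2 ratio of GLUL to GLUD1 between -0.025 and 0.097. On rescaled TPM the median log2 fold change of all genes was -0.026. There, the genes whose sign turned on deposited TPM had the sign seen on counts. The cause of these shifts was not tested.

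With the replicate number as a block, 3158 genes, 2 of the 9 genes and 17 of the list passed, and OGDH did not (edgeR adjusted p 0.0839). The deviations of same-numbered libraries correlated at -0.046, -0.12 and -0.032, and none of them was highest with its own number. With 3 libraries per group this cannot settle whether same-numbered libraries were grown or prepared together. Depth limits SLC1A3 and GLS2, which had 55 to 131 counts per library.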
